A study of Mus musculus with 8 samples.

Results

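Neuropeptides are signalling molecules cut from larger precursor proteins. The precursor enters the secretory pathway, is packed with granins into dense-core vesicles, is cleaved there by the prohormone convertases PC1/3 and PC2, is trimmed by carboxypeptidase E and is often amidated at its end by the enzyme PAM. In the ventral tegmental area (VTA), the midbrain region that holds the mesolimbic dopamine neurons, peptides such as cholecystokinin and neurotensin are made in part by the dopamine neurons themselves, while others reach the region in axons from the hypothalamus.

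The genes examined here were 36 of the 54735 genes in the count table, chosen by name as peptide precursors, granins and processing enzymes, with tachykinins, opioid peptides and the corticotropin-releasing hormone family left out. They were 10 precursors best known from hypothalamic neurons, 15 precursors made more widely in the brain, 7 granins or granin-like vesicle proteins, and 4 processing enzymes. A total of 29 had enough counts to be tested and 7 were too low, of which 2 had no count in any library. In this comparison none of the 29 passed an adjusted p of 0.05 in the edgeR quasi-likelihood test, against 14 of 16538 tested genes (0.0847%).

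The study asked how social stress in the third postnatal week affects the developing VTA. DBA2/J mice labelled as male were either left undisturbed with their mothers (CTR, 4 libraries) or, in the social stress group (SS, 4 libraries), kept with an unfamiliar adult CD1 male for 30 min per day from postnatal day 14 to postnatal day 21. The resident males were gonadectomized and housed alone. Left and right VTA punches of 1 mouse formed 1 library, and the age label reads postnatal day 21 although the study's methods place the collection on the day after the last exposure. Litter and punch level are not in the labels used here, and the p-values below treat the 4 mice of a group as independent.

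Library totals ranged from 20036086 to 47319997 counts on genes. CTR-1 and CTR-2 were thin at low levels: of 1989 genes averaging 1 to 3 CPM (counts scaled to the library total), 434 were missing from CTR-1 and 354 from CTR-2, against 1 to 94 in the others. A count of 0 allows a level of up to 0.0622 to 0.155 CPM, taken as 3 counts of a library's total, and this covers counting error only. Transcripts of the X and Y chromosomes in CTR-5 and SS-5 went against the label male, with 14997 and 6551 counts of Xist compared with 0 to 3 in the other libraries. The dopamine neuron marker list of 13 genes summed to 1284 to 2662 CPM in CTR and 430 to 589 CPM in SS, so the sum was lower in every SS library than in any CTR library. Pitx3 followed the sum, with no count in SS-3 and SS-4. Not every gene of the list did so. Nr4a2 had a higher mean in SS (77.9 CPM, against 69.8 in CTR). Foxa1 and Lmx1b were higher in SS-5 than in any CTR mouse. In bulk tissue, fewer cells of a type and less RNA per cell cannot be told apart.

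Read per kilobase of exon, so that genes of unequal length can be compared, carboxypeptidase E and most granins exceeded every precursor. Cpe, which encodes carboxypeptidase E, had the highest level of the 29 genes, with 809 CPM per kb in CTR and 705 in SS. The next was Pcsk1n, which encodes proSAAS, a peptide precursor and inhibitor of PC1/3, with 676 CPM per kb in CTR and 531 in SS. Scg2 (secretogranin II) followed at 418 and 410, and Scg5, which encodes the PC2 chaperone 7B2, at 383 and 315. The convertases themselves were lower, with Pcsk2 (PC2) at 29.6 in CTR and 28.3 in SS and Pcsk1 (PC1/3) at 11.9 and 11.5.

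Among the precursors, Sst (somatostatin) led on the same per-kilobase scale, with 89.6 CPM per kb in CTR and 100.4 in SS, or 37.0% and 37.2% of the sum over all tested precursors. Adcyap1, the precursor of the peptide PACAP, held 19.4% of that sum in CTR and 17.7% in SS. The makeup of the remainder differed. Cck (cholecystokinin) made up 14.7% in CTR and 4.28% in SS, whereas Pmch (pro-melanin-concentrating hormone) made up 3.50% in CTR and 18.5% in SS. Pmch thus stood 17th among the 29 genes in CTR and 10th in SS, and Cck 11th in CTR and 16th in SS. Leaving out a library here was chosen after seeing the data. The CTR figures for Pmch rest on CTR-2, without which its share was 1.57% and its place 22nd. Without CTR-5 the share of Cck in CTR was 10.3%.

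**Figure D1:**
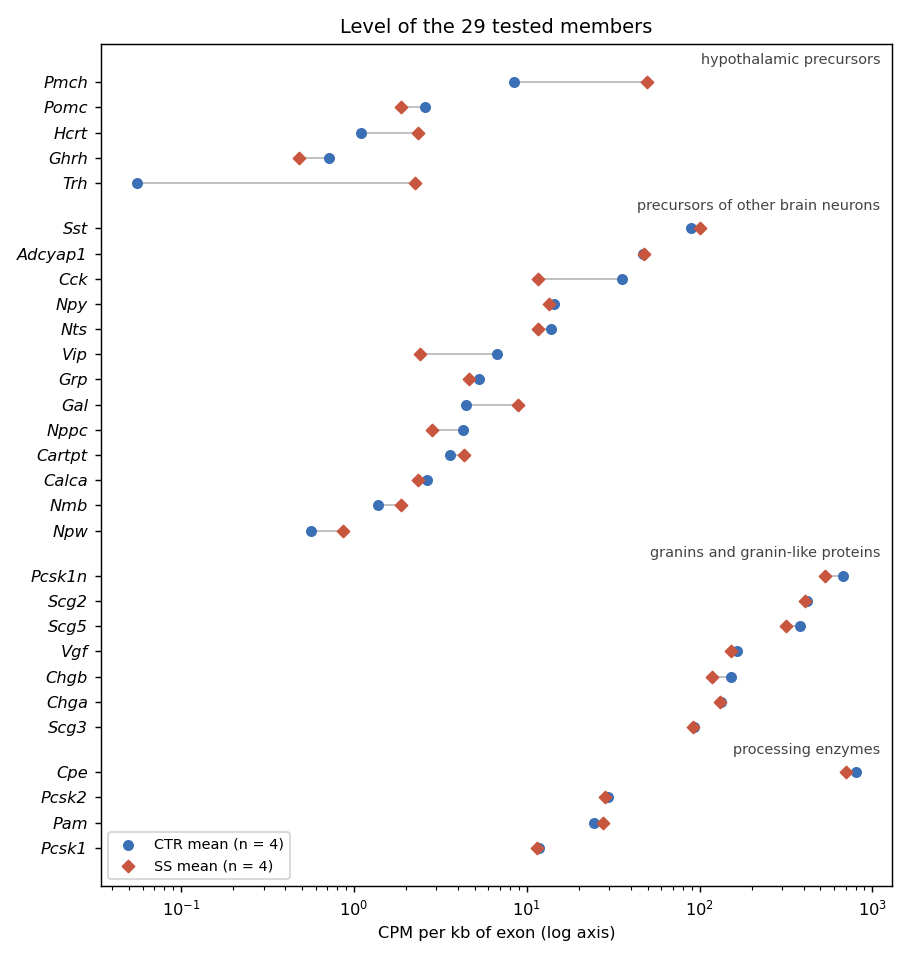
Level of each of the 29 tested genes in CPM per kb of exon on a log axis, as the mean of 4 CTR libraries (circles) and 4 SS libraries (diamonds), grouped by role. Cpe and Pcsk1n lie at the right, most granins lie above every precursor, and the widest gaps between the group means belong to Trh, Pmch, Cck and Vip.

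Some of these genes share a known control sequence in their promoters. The cAMP response element (CRE), TGACGTCA, was looked for in the RefSeq promoters (GRCm38.p6) from 250 bases before to 50 bases after the RefSeq start. A promoter was matched for 29 of the 36 genes, and Agrp, Gnrh1, Grp, Calcb, Npw, Vgf and Cpe had no entry in the table used. The full element was found in 5 of the 29, compared with 2.03% of 27025 genes. The 5 are shown with 11 bases on either side and the element in capitals, because they hold the most abundant precursor and 3 of the genes for vesicle proteins or convertases.
Sst (chr16:23890874-23890903, minus strand, match starting 48 bases before the start): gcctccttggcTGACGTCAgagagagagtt
Cartpt (chr13:99900777-99900806, minus strand, match starting 112 bases before the start): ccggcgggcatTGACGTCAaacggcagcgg
Scg2 (chr1:79440076-79440105, minus strand, match starting 68 bases before the start): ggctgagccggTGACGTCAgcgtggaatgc
Chgb (chr2:132781559-132781588, plus strand, match starting 72 bases before the start): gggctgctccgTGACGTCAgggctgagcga
Pcsk1 (chr13:75089768-75089797, plus strand, match starting 78 bases before the start): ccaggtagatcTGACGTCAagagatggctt
The shorter core TGACG, on either strand and including the full elements, was found in 19 of the 29 genes, compared with 23.0% of all genes. A GC box, GGGCGG, was found in 16 of 29 (38.2% of all genes), TATAAA in 8 of 29 (15.7%) and CCAAT in 8 of 29 (41.1%). These matches describe letters in a window and not binding, and genes with the full element had log2 fold changes from -0.35 (Chgb) to 0.25 (Cartpt).

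Of the 29 tested genes, 10 had a positive and 19 a negative log2 fold change (SS relative to CTR), with a median of -0.07 beside 0.00 over all tested genes. An unadjusted p under 0.05 was reached by 7 of 29, compared with 6.55% of all tested genes. Of these, Trh and Pmch were higher (2.85% of all genes in that direction), and Cck, Vip, Chgb, Scg5 and Cpe were lower (3.7%). Trh passed the filter in 0 CTR and 4 SS libraries, so its place among the 29 rests on the group where it was high. The 4 CTR and 4 SS values did not overlap for 3 of 29 genes (4.67% of all genes), which were Trh and Pmch with higher values in SS (2.47%) and Cck with lower values (2.21%). DESeq2 with default options gave an adjusted p under 0.05 for 2 of them, Trh and Cck (0.419% of 19349 genes), and limma voom for none (0.103% of 16538).

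The 7 genes under 0.05 were also read without CTR-5 and SS-5, whose sex transcripts went against their labels. The log2 fold changes were then 9.36 for Trh, 2.38 for Pmch, -1.32 for Cck, -2.06 for Vip, -0.20 for Chgb, -0.34 for Scg5 and -0.21 for Cpe, with adjusted p-values of 0.206 to 0.511 in the edgeR quasi-likelihood test. Without CTR-1 and CTR-2, the libraries thin at low levels, they were 4.15, 3.07, -1.97, -0.59, -0.45, -0.09 and -0.08 in the same order. All 7 kept their direction in both. Pmch passed the test in the latter (adjusted p 0.0233 by the edgeR quasi-likelihood test). That fit had 2 CTR and 4 SS libraries, and its groups did not overlap for 14.7% of all tested genes. The number of all genes that passed in it is not given here.

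**Figure D2:**
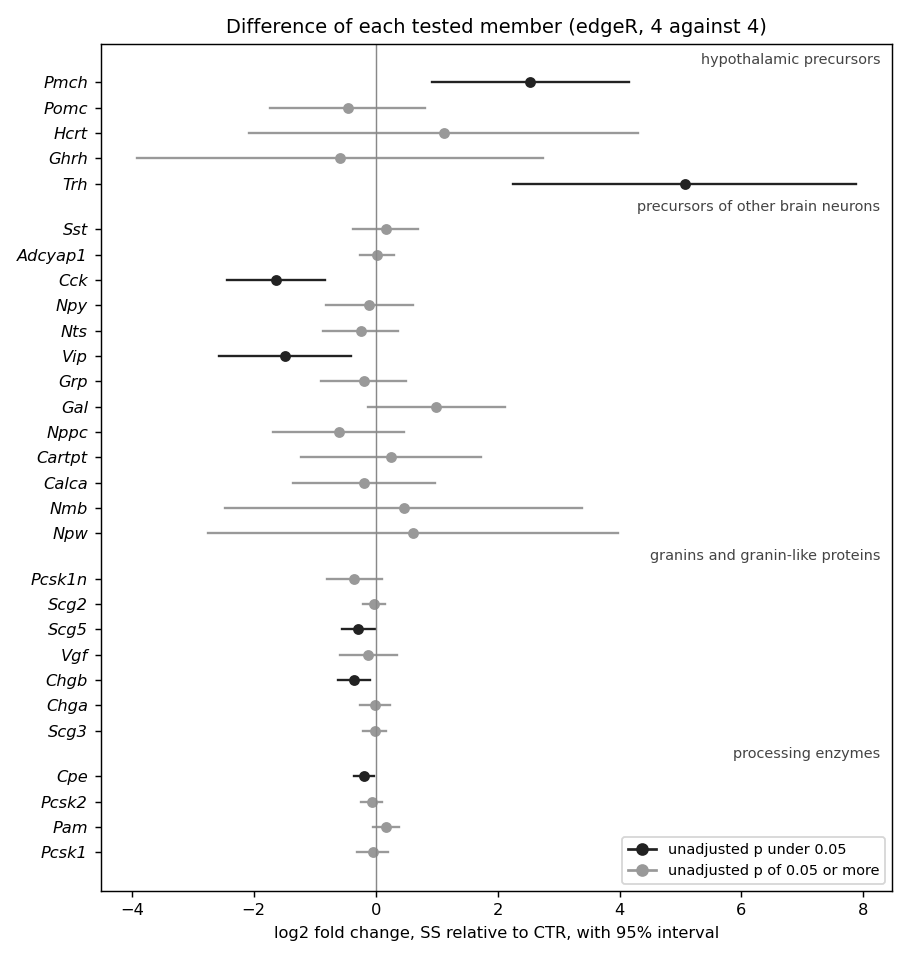
Log2 fold change of each tested gene, SS relative to CTR, with its 95% interval from edgeR's quasi-likelihood fit, grouped by role and drawn dark where the unadjusted p was under 0.05. Most intervals of precursors are wide, reaching from 2.25 to 7.89 for Trh, with Adcyap1 as the narrowest (-0.26 to 0.31). Those of granins and enzymes lie near 0, and the widest of them belong to Vgf (-0.59 to 0.35) and Pcsk1n (-0.80 to 0.10).

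The precursors best known from the hypothalamus were present at low levels, and their summed level was higher in every SS library (40.1 to 60.0 CPM) than in any CTR library (4.19 to 22.8 CPM). In the SS libraries most of that sum was Pmch. Of the 10 genes, 5 were tested, of which 3 had higher and 2 had lower mean levels in SS.

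Pmch, made by neurons of the lateral hypothalamus and the zona incerta, lies on chromosome 10 (88091072 to 88092375, plus strand). It measured 0.207, 16.7, 1.90 and 6.65 CPM in the CTR mice numbered 1, 2, 3 and 5, and 34.3, 32.1, 32.7 and 50.3 CPM in the SS mice numbered 2, 3, 4 and 5, the order kept below. The 4 SS mice were all above the highest CTR mouse, and the CTR mice ranged from almost no transcript in CTR-1 to CTR-2. The means were 6.36 ± 7.4 CPM for CTR and 37.4 ± 8.68 CPM for SS (SD, n = 4 each). The fitted level in SS was 5.81 times that in CTR (log2 fold change 2.54, SE 0.74, 95% interval 0.93 to 4.15), with an unadjusted p of 0.00501 and an adjusted p of 0.609 from the edgeR quasi-likelihood test. Without CTR-2, the CTR mouse with the most Pmch, the log2 fold change was 3.59. The annotation places an antisense neighbour, Parpbp, over 435 exon bases of Pmch, and that gene had 157 counts in all 8 libraries against 5879 for Pmch.

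Trh, the precursor of thyrotropin-releasing hormone, lies on chromosome 6 (92242061 to 92244650, minus strand). The only CTR mouse with a read of it was CTR-5, at 0.306 CPM, while the SS mice had 0.741, 2.34, 4.97 and 4.35 CPM. Trh was thus near its floor in CTR and low in SS, where SS-2 was closest to CTR-5. It passed the filter of 0.389 CPM in 0 CTR and 4 SS libraries, so its presence among the tested genes rests on SS. The log2 fold change was 5.07 (SE 1.29, 95% interval 2.25 to 7.89), with an adjusted p of 0.480 in the edgeR quasi-likelihood test and 0.00222 in DESeq2. Because 3 CTR libraries had no count, the fitted size depends on the small count added to 0, and it was 9.54 without CTR-5. Among those 3 libraries were CTR-1 and CTR-2, where 434 and 354 of 1989 genes averaging 1 to 3 CPM also had no count.

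The upstream sequences of both genes are shown, since they are the pair whose SS values all lay above CTR, with the motifs named above in capitals.
Trh (chr6:92244651-92244900, minus strand): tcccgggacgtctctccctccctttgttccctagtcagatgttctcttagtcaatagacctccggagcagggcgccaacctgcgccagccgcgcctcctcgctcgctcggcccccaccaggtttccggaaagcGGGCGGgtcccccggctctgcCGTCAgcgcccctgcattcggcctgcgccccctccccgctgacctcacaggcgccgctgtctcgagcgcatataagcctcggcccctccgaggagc
Pmch (chr10:88090822-88091071, plus strand): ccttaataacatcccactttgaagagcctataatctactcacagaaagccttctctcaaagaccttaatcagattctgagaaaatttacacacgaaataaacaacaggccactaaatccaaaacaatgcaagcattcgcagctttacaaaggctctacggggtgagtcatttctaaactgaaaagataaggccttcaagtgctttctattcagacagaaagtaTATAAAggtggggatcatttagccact
Trh holds a CGTCA, the core read on the other strand, 96 bases before its start and a GC box 117 bases before it. Pmch holds TATAAA 27 bases before its start and neither the core nor a GC box in this window.

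Hcrt, the precursor of the orexins, which are made in the lateral hypothalamus, measured 3.0, 0, 0 and 0.280 CPM in the CTR libraries and 3.87, 1.91, 1.02 and 0.193 CPM in the SS libraries, so that the groups overlapped from end to end (log2 fold change 1.11, 95% interval -2.08 to 4.30). The value rests on single mice, since it was 4.04 without CTR-1 and 0.36 without SS-2. Pomc, the precursor of melanocortins and beta-endorphin, had means of 3.40 ± 2.03 CPM in the 4 CTR mice (SD) and 2.47 ± 1.12 CPM in the 4 SS mice, with an interval of the log2 fold change from -1.74 to 0.81. Ghrh, the precursor of growth hormone-releasing hormone, had no count in CTR-1, CTR-2 and SS-4 and at most 1.04 CPM elsewhere.

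The other hypothalamic precursors could not be read. Agrp, the melanocortin antagonist of the arcuate nucleus, had 44 counts over all 8 libraries, Gnrh1, the precursor of gonadotropin-releasing hormone, had 52, and Oxt, the precursor of oxytocin, had 24 counts in CTR-1 and SS-5 alone. Avp (vasopressin) and Kiss1 (kisspeptin) had no count anywhere. In the annotation used here all 779 exon bases of Kiss1 are shared with the overlapping gene Gm28040, which also had no count, and how reads in shared bases were counted is not given in the sources used here. Its 0 is therefore not a measure of its level.

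Markers of hypothalamic tissue were read beside these genes. A list of 18 hypothalamic and mammillary markers, of which 13 were tested, summed to 126 to 225 CPM in CTR and 187 to 220 CPM in SS, with 10 higher, 3 lower and none past an adjusted p of 0.05. Otp, a transcription factor of several hypothalamic peptide neurons, measured 0, 0.485, 1.34 and 1.5 CPM in CTR and 4.64, 5.31, 10.3 and 2.20 CPM in SS (log2 fold change 2.72, adjusted p 0.697 by the edgeR quasi-likelihood test). Otp was the only marker of the list whose groups did not overlap. Six6 had no count, and Rax, Hmx2, Hmx3 and Fezf1 were at most 1.01 CPM in every library. The part of hypothalamic tissue in the values of Pmch and Trh was not tested.

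**Figure D3:**
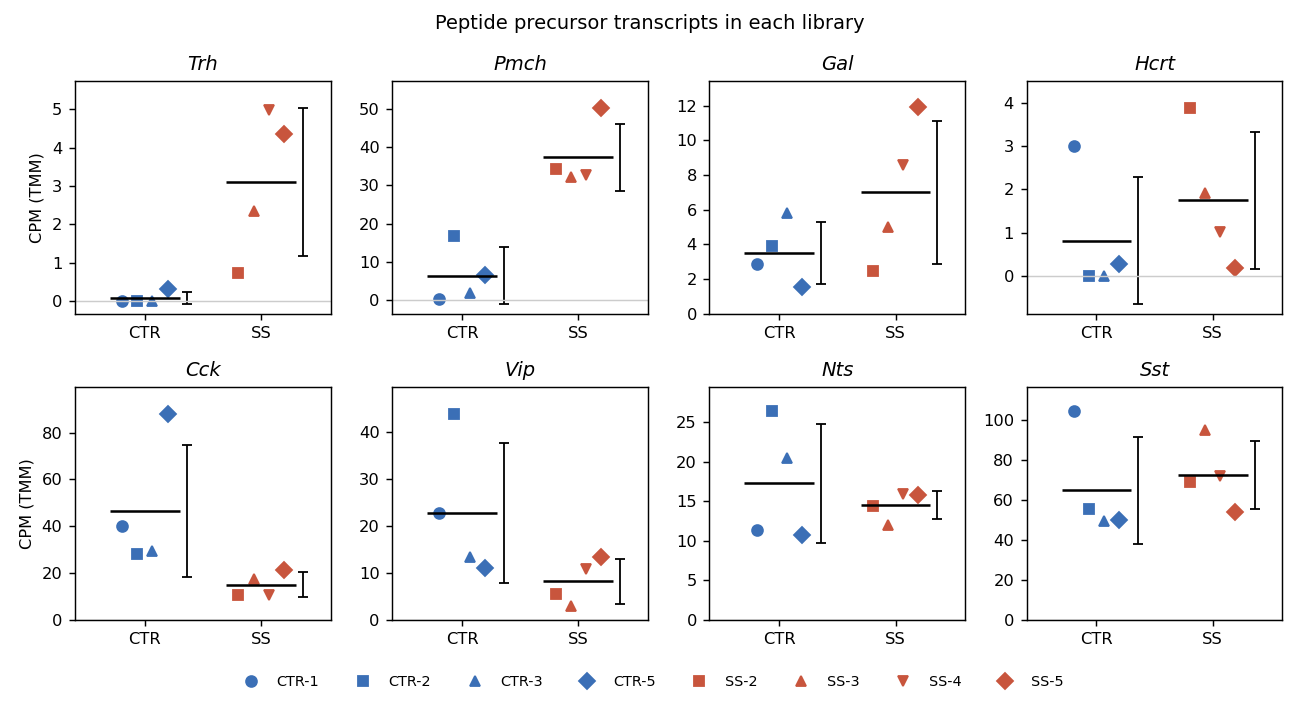
CPM after TMM scaling of 8 precursors in each library, with CTR at the left and SS at the right of each panel. Bars are group means, error bars are 1 SD (n = 4 each), and libraries with the same number share a marker shape. The groups are apart for Trh and Pmch (SS above) and Cck (SS below) and overlap for Gal, Hcrt, Vip, Nts and Sst.

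The 15 precursors of other brain neurons summed to 325 to 447 CPM in CTR and 300 to 353 CPM in SS, and 13 of them were tested. Of these, 6 had higher and 7 had lower mean levels in SS, and the median of their log2 fold changes was -0.10. The lower values were led by Cck and Vip, and the higher values by Gal.

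Cck, the precursor of cholecystokinin, is made by many dopamine neurons of the midbrain and also by cortical and hippocampal neurons, and lies on chromosome 9 (121489824 to 121495694, minus strand). It measured 40.1, 28.0, 29.6 and 88.2 CPM in the CTR mice and 10.7, 17.6, 10.7 and 21.3 CPM in the SS mice. The highest SS mouse was below the lowest CTR mouse, and CTR-5 stood above the other 3. The fitted level in SS was 0.323 times that in CTR (log2 fold change -1.63, SE 0.37, 95% interval -2.43 to -0.83). The unadjusted p was 0.000865, and the adjusted p was 0.323 in the edgeR quasi-likelihood test and 0.00301 in DESeq2. Without CTR-5 the log2 fold change was -1.11, with an adjusted p of 0.151 in the same edgeR test.

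Marker lists of both kinds of Cck cell differed between the libraries. Slc6a3, the dopamine transporter, measured 243 to 613 CPM in CTR and 2.72 to 11.5 CPM in SS, and Th, the rate-limiting enzyme of dopamine synthesis, 161 to 472 CPM and 14.1 to 25.5 CPM. Of the 13 dopamine neuron markers, 7 passed the edgeR test (adjusted p under 0.05), all lower. The 8 markers of cortical and hippocampal excitatory neurons summed to 43.2, 301, 96.2 and 569 CPM in the CTR mice, so that CTR-5 and CTR-2 stood out, and to 53.3 to 132 CPM in SS. Slc17a7, the most abundant of them, reached 403 CPM in CTR-5. The part of either list in the Cck values was not tested.

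Vip, the precursor of vasoactive intestinal peptide, lies on chromosome 10 (5639218 to 5647617, plus strand). It measured 22.7, 43.9, 13.3 and 11.2 CPM in the CTR libraries and 5.60, 3.05, 10.8 and 13.4 CPM in the SS libraries. SS-2, SS-3 and SS-4 were below all CTR mice, and SS-5 was within the CTR range. The log2 fold change was -1.48 (SE 0.50, 95% interval -2.56 to -0.40), with an unadjusted p of 0.0116 and an adjusted p of 0.729 in the edgeR quasi-likelihood test. CTR-2 held the most Vip, and without it the log2 fold change was -0.94.

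The upstream sequences of Cck and Vip, the pair with the most negative log2 fold changes, follow and are marked in the same way.
Cck (chr9:121495695-121495944, minus strand): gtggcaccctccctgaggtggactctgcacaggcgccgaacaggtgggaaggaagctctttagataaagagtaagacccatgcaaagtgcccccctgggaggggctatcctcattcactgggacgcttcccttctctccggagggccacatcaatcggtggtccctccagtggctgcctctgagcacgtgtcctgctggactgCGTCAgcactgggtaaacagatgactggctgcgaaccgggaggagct
Vip (chr10:5638968-5639217, plus strand): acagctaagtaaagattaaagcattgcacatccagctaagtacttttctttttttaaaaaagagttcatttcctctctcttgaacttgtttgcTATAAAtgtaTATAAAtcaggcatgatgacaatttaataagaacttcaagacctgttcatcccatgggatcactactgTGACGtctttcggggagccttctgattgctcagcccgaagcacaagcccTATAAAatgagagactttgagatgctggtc
Cck holds the core as CGTCA 47 bases before its start. Vip holds TGACG 79 bases before its start and TATAAA at 3 places, the nearest 30 bases before the start. Neither holds the full CRE in this window.

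Gal, the precursor of galanin, which is made in the hypothalamus and the locus coeruleus, measured 2.84, 3.88, 5.79 and 1.55 CPM in CTR and 2.49, 5.02, 8.55 and 11.9 CPM in SS. SS-2 lay below 3 of the CTR mice and SS-5 above all of them. The log2 fold change was 0.99 with a 95% interval from -0.13 to 2.11 and did not pass the test.

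The most abundant precursors had close means in the 2 groups. Sst averaged 64.6 ± 26.6 CPM in the 4 CTR mice (SD) and 72.4 ± 16.8 CPM in the 4 SS mice, and the interval of its log2 fold change ran from -0.37 to 0.70. CTR-1 was the highest at 104 CPM, beside 49.2 to 55.1 in the other CTR mice. Adcyap1 averaged 178 ± 35.7 CPM in the CTR mice and 181 ± 11.8 CPM in the SS mice, with a log2 fold change of 0.02. For Adcyap1 the 95% interval of the ratio was 0.836 to 1.24, which was the narrowest of the 18 precursors tested.

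Nts (neurotensin), a peptide of dopamine and hypothalamic neurons, averaged 17.2 ± 7.54 CPM in the 4 CTR mice (SD) and 14.5 ± 1.81 CPM in the 4 SS mice, with an interval of the log2 fold change from -0.86 to 0.36. Npy (neuropeptide Y) had 8.13 ± 3.79 and 7.60 ± 1.66 CPM, with an interval from -0.82 to 0.61. Grp (gastrin-releasing peptide) had 7.86 ± 2.85 and 6.86 ± 1.35 CPM, with an interval from -0.89 to 0.50. The intervals of these 3 genes all included 0 and allow differences of up to -0.89 or 0.61 on the log2 scale.

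Cartpt, the precursor of CART peptides, had 4.62 ± 3.16 CPM in the CTR mice and 5.50 ± 2.20 CPM in the SS mice, with only 0.242 CPM in CTR-2. Nppc, the precursor of C-type natriuretic peptide, had 4.47 ± 2.77 and 2.93 ± 1.16 CPM, and Calca, which encodes calcitonin and the peptide CGRP, had 4.46 ± 2.51 and 3.93 ± 2.41 CPM. Nmb (neuromedin B) had no count in CTR-2 and CTR-3 and 0.830 to 3.51 CPM elsewhere, and shares 163 exon bases with Sec11a in the annotation. Npw (neuropeptide W) reached at most 1.03 CPM. Intervals of these 5 log2 fold changes all included 0, and for Nmb and Npw they were wider than 5 log2 units.

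Nmu (neuromedin U) and Calcb, the beta CGRP gene, were too low to be tested. Nmu had 31 counts in all, from CTR-1, CTR-3 and CTR-5, and Calcb had 13, all from CTR-5. These few reads give no basis for a comparison.

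The granins build the core of dense-core vesicles, and several are themselves cut into peptides. They were abundant, from 250 to 1483 CPM in the group means, and all 7 had a log2 fold change below 0, from -0.35 to -0.01 with a median of -0.12. None passed the adjusted test. The 7 together summed to 3763 to 5994 CPM in CTR and 3967 to 4140 CPM in SS, so that the SS total lay within the CTR range. CTR-1 had the highest total and CTR-5 the lowest. Without CTR-1, the log2 fold changes of Chga, Scg2 and Vgf were above 0, so the shared direction rests in part on that mouse.

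Chgb (chromogranin B, chromosome 2, 132781278 to 132795079) measured 415, 353, 368 and 519 CPM in CTR and 328, 356, 305 and 306 CPM in SS. Only SS-3 was above the lowest CTR mouse. Its log2 fold change was -0.35 (SE 0.12, 95% interval -0.62 to -0.09), with an unadjusted p of 0.012 and an adjusted p of 0.741 in the edgeR quasi-likelihood test. Without CTR-5 it was -0.23. Scg5 (7B2, chromosome 2, 113776362 to 113829121) measured 776, 576, 560 and 493 CPM in CTR and 525, 522, 461 and 468 CPM in SS, for a log2 fold change of -0.28 (SE 0.13, 95% interval -0.56 to -0.01). Its unadjusted p was 0.0437 and its adjusted p 0.755 in the same test. Without CTR-1, the highest of the 8, the value was -0.14.

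Pcsk1n had the same log2 fold change as Chgb with more spread. It measured 2288, 1379, 1348 and 917 CPM in CTR and 1142, 1105, 1165 and 1246 CPM in SS, for a log2 fold change of -0.35 (SE 0.21, 95% interval -0.80 to 0.10, adjusted p 0.775 in the edgeR quasi-likelihood test). The SS mice lay close together inside a wide CTR range, and the value was -0.06 without CTR-1 and -0.52 without CTR-5. Vgf, a neurotrophin-inducible gene whose product is cut into several peptides, measured 690, 483, 415 and 367 CPM in CTR and 530, 538, 445 and 284 CPM in SS, for a log2 fold change of -0.12 (SE 0.22, 95% interval -0.59 to 0.35, adjusted p 0.932 in the same test).

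The other 3 granins were the most even. Scg2 measured 1157, 1032, 1082 and 936 CPM in CTR and 1009, 1018, 972 and 1127 CPM in SS, and the 95% interval of the ratio of SS to CTR was 0.866 to 1.11 (log2 fold change -0.03, SE 0.08, adjusted p 0.959 in the edgeR quasi-likelihood test). Scg3, which helps to sort granins into the vesicle, measured 234, 277, 267 and 235 CPM in CTR and 253, 252, 251 and 245 CPM in SS. The interval of its ratio was 0.869 to 1.12 (log2 fold change -0.02, SE 0.09, adjusted p 0.980). Chga (chromogranin A) measured 435, 343, 387 and 297 CPM in CTR and 353, 343, 368 and 382 CPM in SS, with an interval of the ratio from 0.837 to 1.17 (log2 fold change -0.01, SE 0.11, adjusted p 0.991 in the same test).

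**Figure D4:**
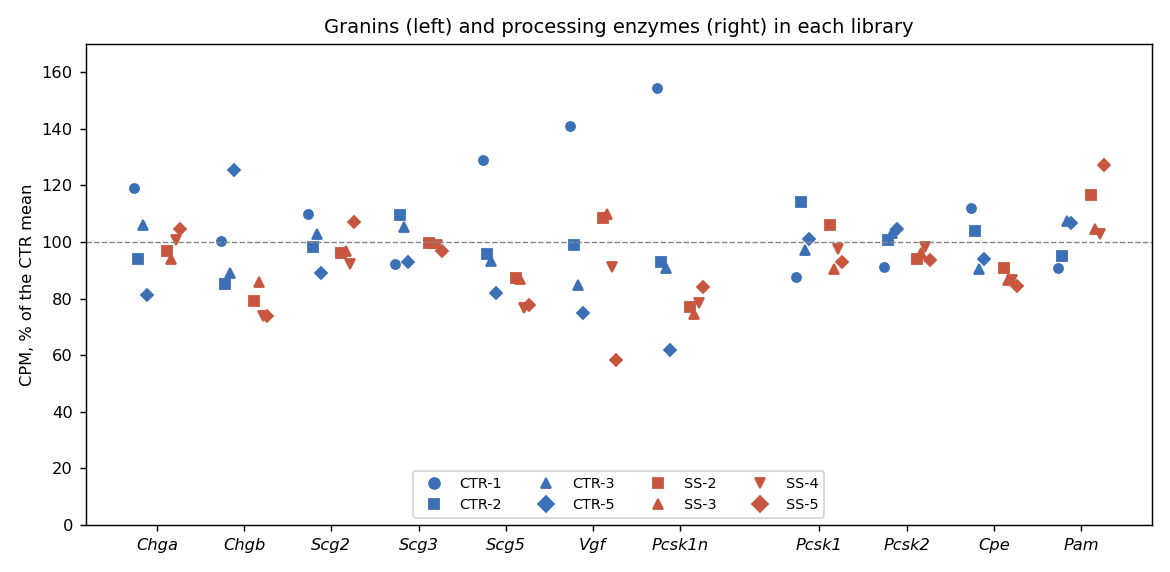
CPM of the 7 granins and 4 processing enzymes in each library, as a percent of the CTR mean (dashed line at 100). CTR-1 is the highest library for Chga, Scg2, Scg5, Vgf, Pcsk1n and Cpe. The SS libraries of Chgb, Scg3, Scg5, Pcsk1n, Pcsk2 and Cpe all lie below the CTR mean.

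The log2 fold changes of the 4 processing enzymes ran from -0.20 to 0.17, with a median of -0.06. Cpe (chromosome 8, 64592542 to 64693054), the carboxypeptidase that removes basic residues after cleavage, measured 2364, 2190, 1910 and 1983 CPM in CTR and 1916, 1829, 1831 and 1786 CPM in SS. SS-2 exceeded the lowest CTR mouse by a few CPM, and the other SS mice were below all CTR mice. The log2 fold change was -0.20 (SE 0.08, 95% interval -0.36 to -0.03), with an unadjusted p of 0.0223 and an adjusted p of 0.755 in the edgeR quasi-likelihood test. Neuronal markers were also lower in SS. The 7 genes of a general neuron list summed to 5886 to 6364 CPM in CTR and 5209 to 5495 CPM in SS, 6 of them with lower means. Snap25, the most abundant, had a log2 fold change of -0.36 (adjusted p 0.241 in the edgeR quasi-likelihood test). The part of neuron content in the values of Cpe, Chgb and Scg5 was not tested.

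Pam, which amidates peptide ends, was the only 1 of the 11 granins and enzymes with a higher mean in SS. It measured 263, 275, 312 and 310 CPM in CTR and 339, 304, 298 and 369 CPM in SS (log2 fold change 0.17, SE 0.10, 95% interval -0.04 to 0.39, adjusted p 0.767 in the edgeR quasi-likelihood test). SS-2 and SS-5 were above all CTR mice and the other SS mice were within the CTR range.

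Pcsk1 measured 58.2, 75.9, 64.4 and 67.1 CPM in CTR and 70.3, 60.0, 64.7 and 61.8 CPM in SS, for a log2 fold change of -0.05 (SE 0.12, 95% interval -0.30 to 0.20, adjusted p 0.948 in the edgeR quasi-likelihood test). Pcsk2 measured 214, 236, 242 and 245 CPM in CTR and 220, 225, 230 and 219 CPM in SS, for a log2 fold change of -0.07 (SE 0.08, 95% interval -0.24 to 0.11, adjusted p 0.899 in the same test). The levels of both convertases overlapped between the groups, and Pcsk2 shares 260 exon bases with the antisense gene Pcsk2os1, which had 1019 counts in all.

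The roles also differed in how much the mice of a group varied. The SD of log2 CPM within groups had a median of 0.89 over the 18 precursors and 0.13 over the 11 granins and enzymes, beside 0.31 over all tested genes. The precursors were also the lower genes, with 12 of the 18 under 10 CPM. Among genes of 10 to 100 CPM, where the median over 7974 genes was 0.24, the 6 genes of these lists had a median of 0.56, and 5 of those 6 were precursors. At 100 CPM and over, the 11 genes of these lists had a median of 0.17, close to the 0.15 over 2238 genes.

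Other genes of the same pathway were read from 4 further lists. None of the 57 tested genes on them passed an adjusted p of 0.05 in the edgeR quasi-likelihood test, and 9 had an unadjusted p under 0.05 (6.55% of all tested genes). For vesicle formation and release, 22 of 22 genes were tested, 12 higher and 10 lower. Cadps2, which primes dense-core vesicles for release, measured 52.6 to 110 CPM in CTR and 23.0 to 40.1 CPM in SS (log2 fold change -1.35, SE 0.23, adjusted p 0.0724 in the edgeR quasi-likelihood test). Baiap3, which acts in dense-core vesicle recycling, measured 242 to 360 CPM in CTR and 422 to 468 CPM in SS (log2 fold change 0.57, SE 0.13, adjusted p 0.319 in the same test). Both genes were called by DESeq2. Rph3a, a Rab3 and Rab27 effector on vesicles, had a log2 fold change of -0.21 (adjusted p 0.741 in the same test).

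Enzymes other than the 4 above gave 11 tested of 13, with 8 higher and 3 lower. Qpctl, a glutaminyl cyclase that forms pyroglutamate ends, measured 15.1 to 22.8 CPM in CTR and 23.8 to 29.7 CPM in SS (log2 fold change 0.52, SE 0.17, adjusted p 0.701 in the edgeR quasi-likelihood test). Furin and Pcsk4, convertases outside the regulated vesicle, had log2 fold changes of 0.37 and 0.54 with adjusted p-values of 0.755 and 0.763 in the same test. The groups did not overlap for Qpctl and overlapped for the other pair.

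Peptide-degrading enzymes gave 14 tested of 14, with 8 higher and 6 lower. Pgpep1, which removes pyroglutamate ends, measured 7.85 to 10.9 CPM in CTR and 12.1 to 15.8 CPM in SS, and Ide, the insulin-degrading enzyme, measured 52.7 to 73.0 CPM in CTR and 48.2 to 50.8 CPM in SS. Neither group pair overlapped, and both adjusted p-values were 0.755 in the edgeR quasi-likelihood test. Dpp10, a relative of the dipeptidyl peptidases without enzyme activity, had a log2 fold change of 0.19 (adjusted p 0.773 in the same test), and Trhde, which degrades thyrotropin-releasing hormone, a log2 fold change of -0.20 (adjusted p 0.940).

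A list of 26 further precursors had 10 tested, 5 higher and 5 lower, and 5 without any count. Its most abundant gene was Agt (angiotensinogen), at 206 to 321 CPM in CTR and 251 to 279 CPM in SS. The smallest p-values on this list belonged to Apln (apelin), Agt and Edn1 (endothelin 1), with log2 fold changes of -0.20, -0.09 and 0.46 and adjusted p-values of 0.851, 0.902 and 0.913 in the edgeR quasi-likelihood test. The groups overlapped for all 10.

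**Figure D5:**
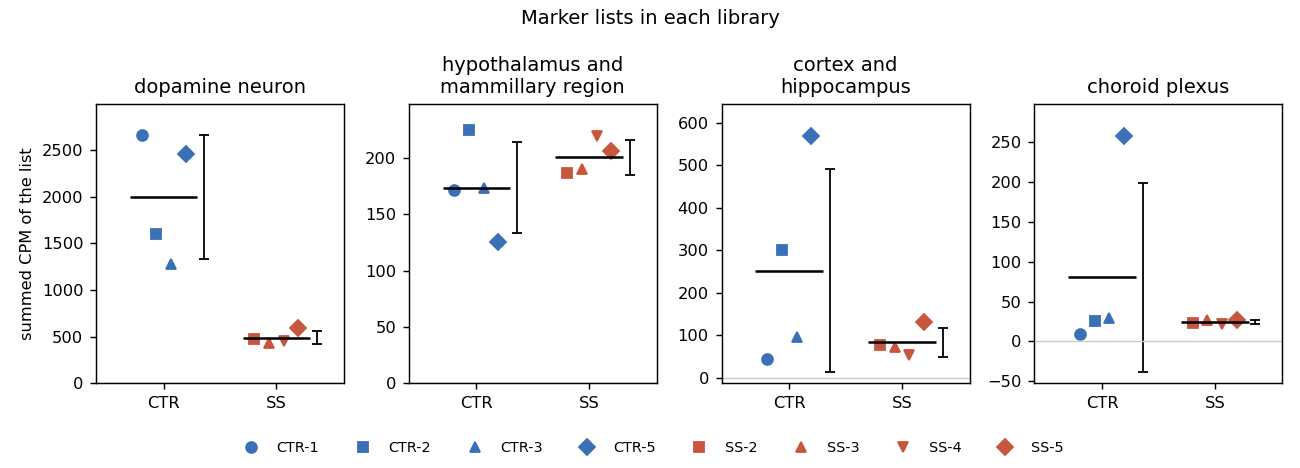
Summed CPM of 4 marker lists in each library, with group means (bars) and 1 SD (error bars, n = 4 each). The sum of dopamine neuron markers is lower in all SS libraries, hypothalamic and mammillary markers overlap between the groups, CTR-5 and CTR-2 carry the most cortical and hippocampal markers, and CTR-5 the most choroid plexus markers (258 CPM).

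Markers of other cell types in the punches were read over their whole lists. Choroid plexus markers summed to 258 CPM in CTR-5, mostly Ttr (234 CPM), and to 9.30 to 28.9 CPM in the other libraries. Pituitary markers summed to at most 0.643 CPM, and Gh and Prl had no count. The source of the Pomc reads was not tested. Serotonin neuron markers, led by Gata3, summed to 1.25 to 8.78 CPM. Cholinergic, oculomotor and Edinger-Westphal markers, led by Slc5a7, summed to 3.73 to 10.3 CPM. GABA neuron markers, led by Gad2, summed to 426 to 466 CPM in CTR and 366 to 564 CPM in SS. The list read as thalamic, led by Slc17a6, summed to 440 to 554 CPM in CTR and 550 to 575 CPM in SS. Gbx2 of that list had 50 counts in all, and how much of the sum came from thalamus was not tested.

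Glial and vascular markers overlapped between the groups. Astrocyte markers, led by Aldoc, summed to 1857 to 2105 CPM in CTR and 1592 to 1886 CPM in SS, and oligodendrocyte markers, led by Mbp, to 19044 to 26763 and 21802 to 24215 CPM. Microglial markers summed to 223 to 299 and 215 to 236 CPM, and endothelial markers, led by Flt1, to 200.3 to 230 and 187 to 240 CPM.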

How the data were processed

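Per the study's methods, single-end reads passed through Cutadapt and were mapped to mm10 by STAR, and htseq-count tallied them over Ensembl gene models. The authors deposited these counts without normalization, and the strand setting is not given in the sources used here. Each of the 8 libraries was placed in its group by its title, and every column belonged to a sample.

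Counts were analysed in R 4.3.3. A default run of filterByExpr (edgeR 4.0.16), with minimum counts of 10 in a library and 15 in total and a limit of 0.389 CPM here, left 16538 genes. After TMM scaling, SS and CTR were compared with glmQLFit and glmQLFTest, the group being the only term, and Benjamini-Hochberg adjustment ran over all tested genes at 0.05. The biological coefficient of variation was 0.384. The steps were tested on simulated counts. DESeq2 1.42.0, limma 3.58.1 (voom), 2 other scalings, other filters, left-out libraries, sex transcripts as a covariate and the replicate number as a block were the alternatives. CPM per kb used the summed exon length of GENCODE M21 on GRCm38, and the annotation by Ensembl was not used here.

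The genes, the lists and the alternatives were chosen with earlier results of these data known. All 36 genes are named. Full statistics go to tested genes with an unadjusted p under 0.05 or without overlap, and to every granin and enzyme. Of each further pathway list up to 3 genes with the smallest p are named, and of each marker list the most abundant, with Slc6a3 and Th. Otp, Ttr, Trhde and the markers without a count were chosen after their values were seen. Some genes that the rule selects are not reported here. Shared replicate numbers did not pair the mice. Promoters were RefSeq sequences of 300 bases on GRCm38.p6, searched for fixed motifs on both strands.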

Additional observations from a re-analysis of the deposited data

Results flagged for a closer look

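In groups of 4, a mouse was looked at again when its gap to the nearest other mouse exceeded 0.829 of the group's range (Dixon's 95% limit). Of 58 groups of 4 values, 4 exceeded it. The limit would give about 2.9 for independent normal values, which low CPM values from the same libraries need not be. CTR-5 stood apart for Trh with a ratio of 1, since it held the only CTR counts of this gene. SS-5 was the highest SS mouse for Pmch (ratio 0.877, 50.3 CPM beside 32.1 to 34.3). CTR-1 was the highest CTR mouse for Hcrt (ratio 0.907, 3.0 CPM beside 0 to 0.280) and for Sst (ratio 0.891, 104 CPM beside 49.2 to 55.1).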

How the results depend on the processing

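There were 23 alternative settings, of which the threshold of 0.01 left the fold changes as they were. The others, at most 22 for a gene, gave 619 values of the 29 tested genes. Of these 568 kept their direction and their side of the threshold, 11 kept the direction and passed it, and 40 changed sign, and 15 of the 29 genes kept 1 sign throughout. The number of called genes among all tested (14 in the edgeR test reported) was 81 with DESeq2, 27 with edgeR's bias-adjusted estimate, 22 without a filter, 22 at a mean count of at least 50, 7 at an adjusted p under 0.01 and 9 without CTR-5 and SS-5. It was 684 with DESeq2 without CTR-5, 399 with DESeq2 without CTR-5 and SS-5, and 6 to 19 when 1 library was left out. The number without CTR-1 and CTR-2, and that with sex transcripts as a covariate, are not given here. Of the peptide genes (0 called), 2 were called by DESeq2 (Cck and Trh), 1 by the bias-adjusted estimate (Pmch, adjusted p 0.0222), 1 without CTR-1 and CTR-2 (Pmch), 1 with sex transcripts as a covariate (Cck), 4 by DESeq2 without CTR-5 (Cck, Pcsk1n, Trh and Vip) and 2 by DESeq2 without CTR-5 and SS-5 (Cck and Pcsk1n), and 0 in each fit without 1 library. Groups did not overlap for 3 of 29 peptide genes as reported (4.67% of all genes). With median-ratio scaling they did not overlap for 4 of 29 (4.72%), and with upper-quartile scaling for 4 of 29 (4.67%). The count was 3 of 34 without a filter (3.29%) and 5 of 25 at a mean count of at least 50 (5.08%). It was 7 of 28 without CTR-5 and SS-5 (20.1%), 7 of 30 without CTR-1 and CTR-2 (14.7%), and 3 to 5 of 29 without 1 library (6.35% to 15%). Of the 4 further pathway lists (0 called), DESeq2 called 2, the bias-adjusted estimate 1, no filter 1, a mean count of at least 50 1, DESeq2 without CTR-5 5 and DESeq2 without CTR-5 and SS-5 3, with 0 to 1 without 1 library (Cadps2 without CTR-3).

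These log2 fold changes changed sign. With limma voom Ghrh was 0.27 and Chga 0.013. Without CTR-5 and SS-5 Cartpt was -0.010, Npy 0.10 and Adcyap1 -0.060. Without CTR-1 and CTR-2 Pomc was 0.30, Npw -0.36, Chga 0.084, Scg2 0.033, Vgf 0.20 and Pcsk1n 0.042. DESeq2 without CTR-5 gave Npy 0.26 and Adcyap1 -0.056, and without CTR-5 and SS-5 Adcyap1 -0.063. Leaving out 1 library gave Chga -0.10 to 0.082, Scg2 -0.080 to 0.022, Vgf -0.24 to 0.093, Cartpt -0.15 to 0.61, Nts -0.42 to 0.035, Adcyap1 -0.053 to 0.17, Calca -0.69 to 0.076, Scg3 -0.052 to 0.030, Pcsk1 -0.11 to 0.022, Ghrh -0.998 to 0.069 and Npy -0.29 to 0.26. The same range was 4.67 to 9.54 for Trh, 2.15 to 3.59 for Pmch, -1.83 to -1.11 for Cck and -1.82 to -0.94 for Vip. The causes were not tested.

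With the replicate number as a block over the numbers 2, 3 and 5, 9 genes were called and 0 of the peptide genes, and Pomc was 0.11, Chga 0.079, Scg2 0.049 and Vgf 0.047. The deviations of mice with the same number correlated at -0.0062, -0.0077 and 0.060, so the numbers were not taken to pair the mice.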
